A study of Mus musculus with 61 samples.

Results

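Transcript levels of 9 mast cell genes were followed across adipose tissue of 8 mouse strains. The genes were taken by symbol from the deposited table of 21169 genes: the granule proteases Cpa3, Cma1, Mcpt4, Tpsb2 and Tpsab1, the histidine decarboxylase Hdc, the stem cell factor receptor Kit, and the IgE receptor chains Fcer1a and Ms4a2. All 9 were present, and all 9 passed the filter on low counts that left 18603 genes for testing. The strains are the founders of the Diversity Outbred mouse population, labelled 129, AJ, B6, Cast, NOD, NZO, PWK and WSB. There were 7 libraries each of 129, AJ and Cast and 8 of every other strain, 61 in all. All mice had been fed the same diet, which the labels call high in fat and sugar and give as 45 percent fat, so no control diet was available for comparison. The depot, age and sex of the mice were not given in the labels. The study asks how strains fed alike differ, and no strain is named as the control.

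Mast cells are resident immune cells of connective tissue, packed with granules in which proteases and histamine are stored bound to proteoglycan. Cpa3 encodes a carboxypeptidase, Cma1 and Mcpt4 encode members of the chymase family, and Tpsb2 and Tpsab1 encode tryptases, all of which are released together with histamine when the cell degranulates. Kit, the receptor for stem cell factor, keeps mast cells alive, and the high-affinity IgE receptor triggers degranulation when antigen crosslinks bound IgE. In adipose tissue mast cells lie in the stroma among adipocytes and along vessels. In whole tissue, fewer mast cells and less RNA per mast cell cannot be told apart.

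Library totals ran from 19851580 to 61277576 estimated reads, with a median of 38657683. Levels are given as CPM, a gene's counts relative to the library total, scaled by the trimmed mean of M-values (TMM), and sums of marker genes as CPM of the library total without that scaling. Transcripts of 10 mature adipocyte markers summed to 12600 to 36900 CPM, so every library carried the labelled tissue. Of 8 listed markers of the male genital duct 2 were analysed here. Crisp1, an epididymal gene, had 278 to 1180 CPM in 6 libraries (B6 replicates 5 and 6, NOD replicate 6 and 129 replicates 6, 7 and 9) and at most 9.19 CPM elsewhere, while Rnase10 had at most 0.48 CPM in those 6. Ear2, an eosinophil-associated ribonuclease, had 160 and 170 CPM in Cast replicates 5 and 6 and at most 27.2 CPM in the other libraries, while the other eosinophil markers analysed, Siglecf, Ccr3 and Prg2, had at most 0.135 CPM in both and were called lower in Cast. Levels of Xist, the RNA that coats an inactive X chromosome, fell into separate ranges of 393 to 719 CPM in 30 libraries and 0.0275 to 54.7 CPM in 31, with both kinds in every strain.

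Promoter sequences are shown for the leading members because Cpa3, Cma1 and Mcpt4 moved together in the results that follow and Kit did not. The windows run from 250 bases before to 50 bases after the annotated start, from RefSeq on build GRCm38.p6, written 5′ to 3′ on the gene's own strand. Capitals mark GATAA or its reverse complement TTATC, the letters at the core of sites bound by GATA transcription factors. The Cpa3 window lies at chr3:20242132-20242431 on the minus strand, Cma1 at chr14:55944626-55944925 on the minus strand, Mcpt4 at chr14:56062261-56062560 on the minus strand and Kit at chr5:75574737-75575036 on the plus strand.
Cpa3: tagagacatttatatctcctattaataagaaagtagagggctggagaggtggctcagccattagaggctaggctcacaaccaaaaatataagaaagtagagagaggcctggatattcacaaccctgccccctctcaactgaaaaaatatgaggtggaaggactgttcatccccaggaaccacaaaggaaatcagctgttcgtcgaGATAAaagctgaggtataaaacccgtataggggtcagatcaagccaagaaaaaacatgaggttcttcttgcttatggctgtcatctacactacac
Cma1: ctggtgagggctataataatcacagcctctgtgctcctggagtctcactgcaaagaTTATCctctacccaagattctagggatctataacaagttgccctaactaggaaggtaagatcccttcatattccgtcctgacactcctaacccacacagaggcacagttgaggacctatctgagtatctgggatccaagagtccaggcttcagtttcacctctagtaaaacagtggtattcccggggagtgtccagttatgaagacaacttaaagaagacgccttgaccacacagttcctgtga
Mcpt4: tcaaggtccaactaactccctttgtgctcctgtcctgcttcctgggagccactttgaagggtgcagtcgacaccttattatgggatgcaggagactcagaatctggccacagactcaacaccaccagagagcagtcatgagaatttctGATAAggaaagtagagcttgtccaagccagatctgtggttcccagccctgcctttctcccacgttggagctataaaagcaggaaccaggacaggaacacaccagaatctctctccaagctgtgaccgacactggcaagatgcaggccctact
Kit: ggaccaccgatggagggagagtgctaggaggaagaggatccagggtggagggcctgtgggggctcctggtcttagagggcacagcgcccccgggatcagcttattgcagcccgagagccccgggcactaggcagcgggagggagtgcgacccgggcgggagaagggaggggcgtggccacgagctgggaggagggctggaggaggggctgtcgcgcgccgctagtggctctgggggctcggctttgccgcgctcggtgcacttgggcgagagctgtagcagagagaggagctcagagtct
GATAA was searched on both strands. It was found once at position -45 in the Cpa3 window, once at -194 in the Cma1 window (as TTATC) and once at -102 in the Mcpt4 window, counted from the start. Among the other members with a window, Ms4a2 held 3 matches and Fcer1a 1, while the windows of Kit and Hdc held none. Of 32851 RefSeq windows of the same length, 25.4% held at least 1 match and 5.27% held 2 or more. TATAAA was found at positions -31 and, on the opposite strand, -242 of Cpa3, at -32 of Mcpt4 and at -125 of Fcer1a, and 13.6% of all windows held it on either strand. Other letters searched did not set the proteases apart from Kit. CANNTG, where N is any base, was found 2 times in Cpa3, 3 times in Fcer1a and once each in Cma1, Kit and Hdc. Mcpt4 and Ms4a2 held none, and 72.3% of all windows held it. CATGTG was found only in Fcer1a (14.2% of all windows) and CACGTG in no member's window (7.15%). A match of letters is a description of these windows and not a measured site, and its part in the members' levels was not tested. Tpsb2 and Tpsab1 had no window and are named only.

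Strain accounted for a large part of the variation of each member. All 9 differed among the strains by edgeR's F-test, where 89.9% of all tested genes also did. The share of variance of log2 CPM that lay between strains was highest for Tpsb2 at 80.1%, followed by Cpa3 at 77.7%, Tpsab1 at 77.1%, Cma1 at 76% and Mcpt4 at 75.5%. Kit had 62.2%, Ms4a2 56.2%, Fcer1a 52.9% and Hdc 46.2%. Across strain means the highest exceeded the lowest 25.4-fold for Tpsab1, 17-fold for Cpa3 and 2.74-fold for Kit.

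Each strain was then set against the mean of the other 7 on the log2 scale, and a gene was called at an edgeR adjusted p under 0.05 over all tested genes. The contrast averages log2 levels, so its sign can differ from that of arithmetic means. Of the 72 contrasts of the members, 22 were called higher, 19 lower and 31 neither. NZO had 8 of 9 members higher and none lower, with a median log2 difference of 1.54 against -0.02 over all tested genes, where 27.2% of genes were called higher and 26.6% lower. AJ had 7 higher and none lower (median 1.41), against a background of 13.4% higher and 9.59% lower. B6 had 5 higher and 1 lower (median 0.56), where 14.6% and 11.7% of all genes were called.

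WSB and PWK stood at the other end. WSB had none higher and 7 lower, with a median of -1.8, where 25.6% of all genes were called higher and 23.7% lower. PWK had none higher and 8 lower (median -1.3), with a background of 24.6% higher and 19% lower. The other strains moved in few members. NOD had 1 lower and none higher (median -0.29) where 11.8% of all genes were lower and 14.7% higher. For 129 1 was higher and none lower (median 0.27), where 10.8% and 7.78% of genes were called. Cast had 1 higher and 2 lower (median -0.07), where 29.6% and 26.6% of genes were called. The medians over all tested genes lay between -0.02 and 0.03 in the 8 contrasts. Of the macrophage markers 10 of 10 were higher in NZO and 9 of 10 lower in WSB, and the part of other cell types in the members' differences was not tested.

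**Figure D1:**
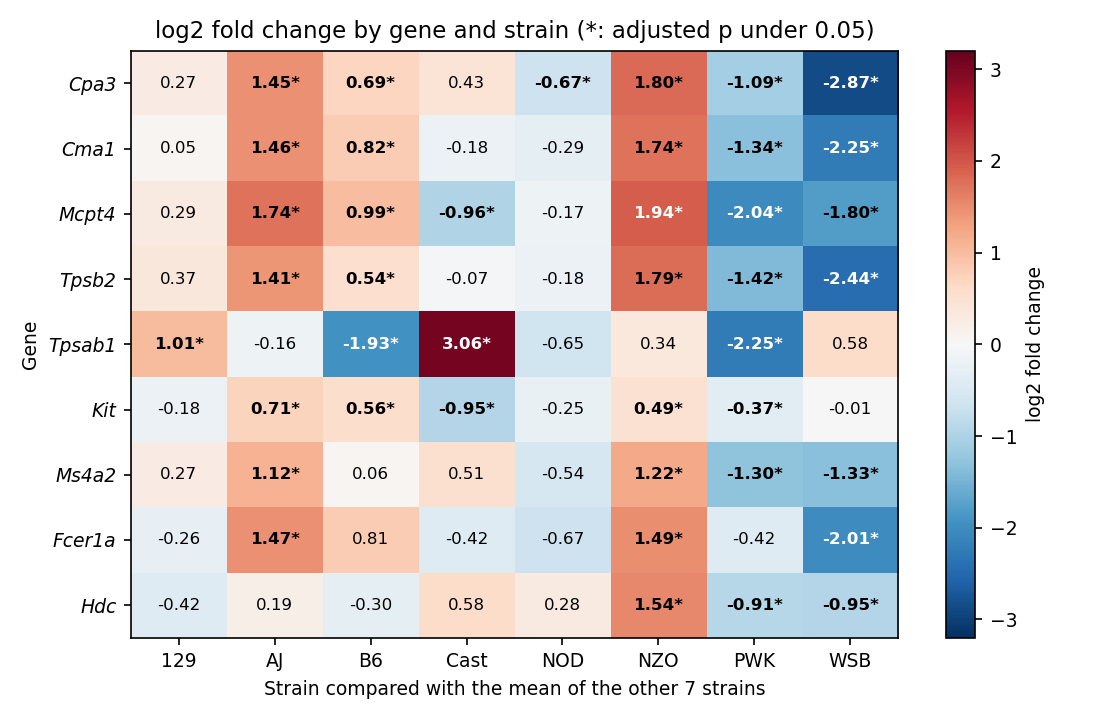
Heat map of the log2 difference of each of the 9 members (rows) in each strain (columns) against the mean of the other 7 strains, from edgeR, with an asterisk where the adjusted p was under 0.05. The AJ and NZO columns are positive in most rows and the PWK and WSB columns negative, while Tpsab1 has its own pattern with 3.06 in Cast and -1.93 in B6.

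Between pairs of strains, 158 of 252 member tests were called, where 37.1% of all such gene tests were. All 9 members differed between NZO and PWK (background 55.7%) and between AJ and PWK (background 37.7%), each higher in NZO or AJ. Between AJ and NZO only Hdc was called among the 9, where 36.2% of all genes were. That call includes NZO replicate 8, which had 49 CPM of Hdc against at most 8.43 in the other NZO libraries. In 70 of the 252 the ranges of the paired strains did not overlap, where 12.3% of all such gene tests had ranges apart.

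Cpa3 (ENSMUSG00000001865, GRCm38 chr3:20215620-20242181, minus strand) encodes carboxypeptidase A3, which trims peptides from their C-terminal ends inside the granule. NZO libraries ran from 4.2 to 35.3 CPM with a median of 13.2, and AJ libraries from 10.2 to 26.1 CPM with a median of 12. WSB libraries ran from 0.854 to 1.73 CPM with a median of 0.941, below every library of NZO, AJ, B6, Cast, NOD and 129. The highest NZO library held more Cpa3 than any other of the 61, yet the NZO range overlapped that of every strain but WSB. Against the mean of the other strains the log2 difference was 1.8 ± 0.2 (SE) in NZO (mean 18 ± 12.8 CPM, SD, n = 8; edgeR adjusted p = 5.8e-11) and 1.45 ± 0.22 in AJ (mean 14.6 ± 5.59, n = 7; edgeR adjusted p = 5.52e-07). In WSB it was -2.87 ± 0.3 (mean 1.05 ± 0.295, n = 8; edgeR adjusted p = 1.82e-11) and in PWK -1.09 ± 0.26 (mean 3.11 ± 1.18; edgeR adjusted p = 0.000465). All 8 WSB libraries and all 8 PWK libraries lay below the median of the libraries of other strains.

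B6 was higher for Cpa3 by 0.69 ± 0.22 (mean 9.17 ± 3.85 CPM, n = 8; edgeR adjusted p = 0.0163), a call that was lost without B6 replicate 1 (0.52, edgeR adjusted p = 0.0989). NOD was lower by -0.67 ± 0.25 (mean 4.02 ± 1.25; edgeR adjusted p = 0.0382), a call lost without any of NOD replicates 5, 6, 7 and 8 in turn, when the difference was -0.59 to -0.64. Neither 129 (7.12 ± 1.39 CPM) nor Cast (7.86 ± 3.45 CPM) passed the test. In the order of fitted levels, NZO, AJ, B6, Cast, 129, NOD, PWK and WSB, no neighbours passed the test except PWK and WSB, which differed by 1.55 (edgeR adjusted p = 0.000122).

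Cma1 and Mcpt4 encode serine proteases that are both placed in the chymase family by sequence, and lie near each other on chromosome 14. Cma1 (ENSMUSG00000022225, chr14:55941453-55944661, minus strand) ran from 3.98 to 24.2 CPM in NZO with a median of 10.4, from 7.12 to 18.1 in AJ with a median of 10.5, and from 0.703 to 1.87 in WSB with a median of 1.17. Every NZO, AJ and B6 library lay above the median of the other libraries, and every PWK and WSB library below it. The log2 differences were 1.74 ± 0.2 in NZO (13.2 ± 8.72 CPM; edgeR adjusted p = 1.85e-10), 1.46 ± 0.22 in AJ (11.2 ± 3.56 CPM; edgeR adjusted p = 5.23e-07) and 0.82 ± 0.22 in B6 (7.58 ± 2.56 CPM; edgeR adjusted p = 0.00372). They were -2.25 ± 0.29 in WSB (1.16 ± 0.406 CPM; edgeR adjusted p = 4.15e-09) and -1.34 ± 0.26 in PWK (2.04 ± 0.889 CPM; edgeR adjusted p = 3.63e-05). Levels in 129, Cast and NOD, at means of 4.74, 4.15 and 3.88 CPM, did not pass the test. Neighbours in the order differed only between NOD and PWK (0.93, edgeR adjusted p = 0.0157) and between PWK and WSB (0.8, edgeR adjusted p = 0.0428).

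Mcpt4 (ENSMUSG00000061068, chr14:56059744-56062310, minus strand), the mouse protease taken as closest in chymase activity to the human enzyme, ran from 4.09 to 39.6 CPM in NZO with a median of 16 and from 13.8 to 28.6 in AJ with a median of 16. PWK libraries ran from 0.399 to 2.6 CPM (median 2.29) and WSB libraries from 1.28 to 2.84 (median 2.15). The ranges of PWK and WSB lay over each other, unlike their order for Cpa3. NZO was higher by 1.94 ± 0.23 (20.5 ± 14.8 CPM; edgeR adjusted p = 2.44e-10), AJ by 1.74 ± 0.24 (18.2 ± 5.26 CPM; edgeR adjusted p = 1.15e-07) and B6 by 0.99 ± 0.25 (11.5 ± 4.07 CPM; edgeR adjusted p = 0.00184). PWK differed by -2.04 ± 0.32 (1.82 ± 0.877 CPM; edgeR adjusted p = 5.48e-07) and WSB by -1.8 ± 0.32 (2.11 ± 0.557 CPM; edgeR adjusted p = 4.67e-06). The difference between PWK and WSB was -0.21, with a 95% interval of -0.94 to 0.51.

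Cast was lower for Mcpt4 by -0.96 ± 0.31 (0.558 to 6.83 CPM, median 3.32; edgeR adjusted p = 0.0077). Its lowest libraries, replicates 5 and 6 with 0.558 and 1.21 CPM from 28 and 54 reads, are those with high Ear2. Without both the difference was -0.57 (edgeR adjusted p = 0.132), so the call rests on them. Part of the Mcpt4 transcript, 12.2% of its 31-base stretches, also occurs in the paralogs Cma2, Mcpt9, Mcpt1 and Mcpt2, and 10.6% of Cma1 occurs in Gm48934. No counts of these genes were analysed here. The estimates were whole numbers in 98.4% of libraries for Mcpt4 and in 100% for Cma1.

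Tpsb2 (ENSMUSG00000033825, chr17:25366550-25368094, plus strand) encodes a tryptase that assembles into rings held together by heparin. NZO libraries ran from 4.93 to 32.8 CPM with a median of 12.4, AJ from 10.2 to 16.1 with a median of 12.4, PWK from 0.89 to 3.56 with a median of 2.26 and WSB from 0.771 to 1.6 with a median of 1.24. No AJ library overlapped PWK or WSB, and no NZO library did. The log2 differences were 1.79 ± 0.18 in NZO (16.2 ± 10.6 CPM; edgeR adjusted p = 2.71e-12), 1.41 ± 0.2 in AJ (12.9 ± 2.14 CPM; edgeR adjusted p = 1.07e-07), -1.42 ± 0.24 in PWK (2.31 ± 0.969 CPM; edgeR adjusted p = 2.47e-06) and -2.44 ± 0.26 in WSB (1.23 ± 0.26 CPM; edgeR adjusted p = 3.65e-11). B6 was higher by 0.54 ± 0.2 (7.59 ± 2.64 CPM; edgeR adjusted p = 0.0404), a call lost without any of B6 replicates 1 to 4 in turn (0.42 to 0.5) and without Cast replicates 5 and 6 (0.51, edgeR adjusted p = 0.0507). The other strains, 129 at 6.83, Cast at 5.26 and NOD at 4.89 CPM, were not called. Neighbours in the order differed only between NOD and PWK (1.08, edgeR adjusted p = 0.00182) and between PWK and WSB (0.9, edgeR adjusted p = 0.011).

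**Figure D2:**
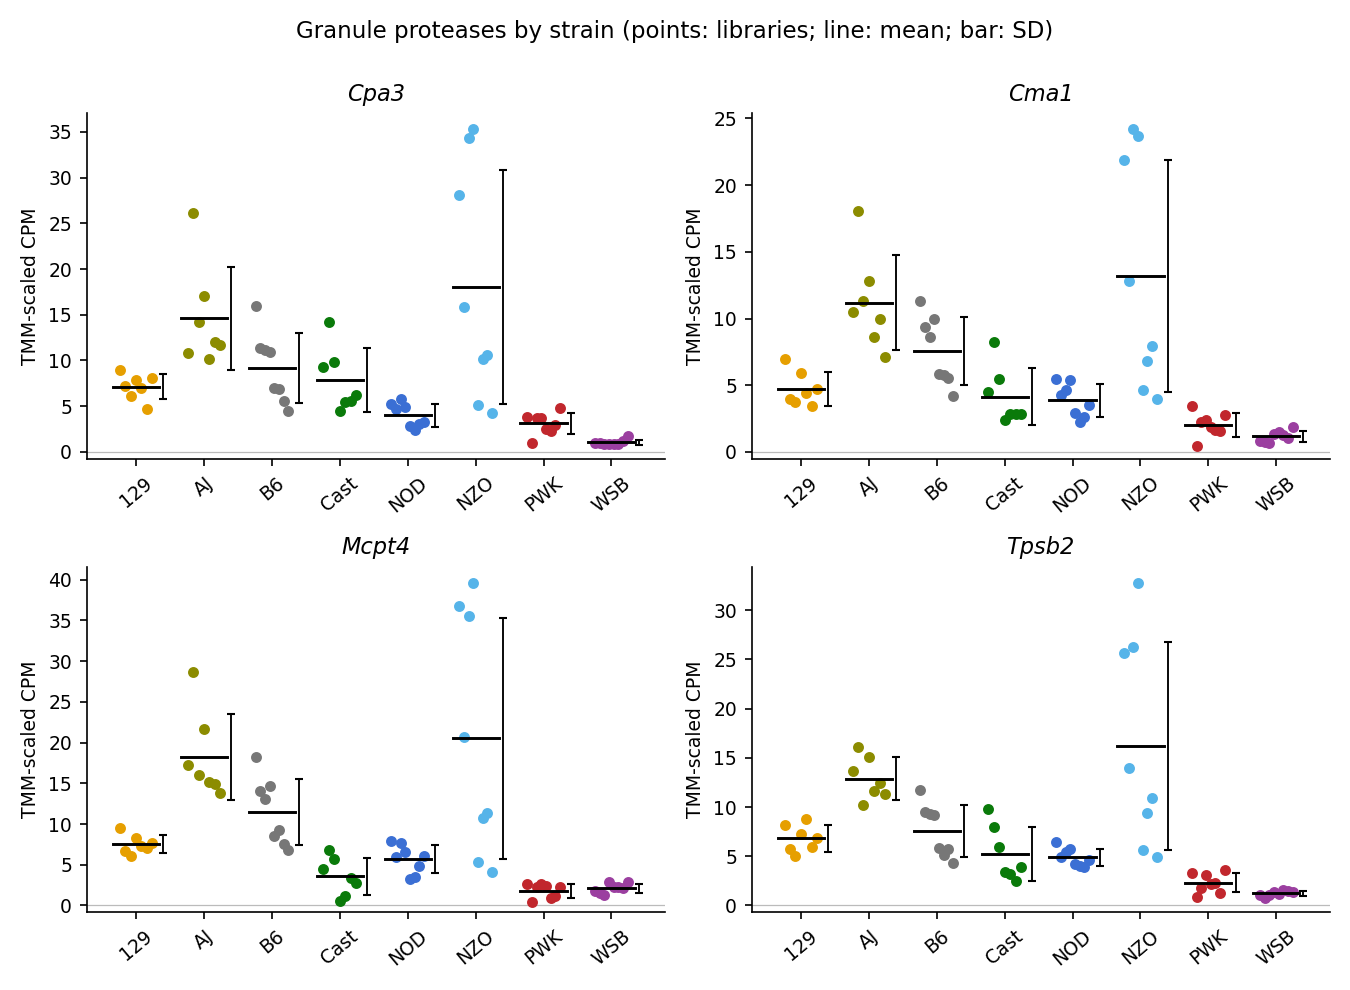
CPM of Cpa3, Cma1, Mcpt4 and Tpsb2 (vertical axes, scaled by TMM) in each of the 61 libraries (points) by strain (horizontal axis), with the strain mean (line) and SD (bar). AJ and NZO hold the highest values in all 4 panels and WSB stays at or under 2.84 CPM, and NZO libraries spread over a wide range, from 4.2 to 35.3 CPM for Cpa3.

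Tpsab1 (ENSMUSG00000024173, chr17:25343245-25345562, minus strand), the neighbouring tryptase gene, ranked the strains in another way. Cast libraries ran from 3.82 to 16.8 CPM with a median of 9.85, while B6 libraries ran from 0.313 to 0.627 CPM (median 0.473) and PWK libraries from 0.123 to 0.657 (median 0.387). Every Cast library lay above every library of B6, PWK, AJ, NOD and NZO. Cast was higher than the mean of the others by 3.06 ± 0.24 on the log2 scale (9.71 ± 4.51 CPM against 1.44 over the other strains; edgeR adjusted p = 4.48e-16). B6 differed by -1.93 ± 0.35 (0.47 ± 0.113 CPM; edgeR adjusted p = 1.87e-05) and PWK by -2.25 ± 0.36 (0.382 ± 0.213 CPM; edgeR adjusted p = 6.35e-07). B6 and PWK differed by 0.29, with a 95% interval of -0.51 to 1.08. Between B6 and Cast the difference was -4.36, with an interval of -5.23 to -3.49. Cast exceeded its neighbour in the order, 129, by 1.79 (edgeR adjusted p = 0.000349), and no other neighbours passed the test.

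The C57BL/6 form of Tpsab1 is known to carry a splice-site change that leaves it without the tryptase, and RefSeq lists the gene of that reference strain as a transcribed pseudogene. Only 0.419% of its 31-base stretches occur in another gene, Tpsb2, and all its estimates were whole numbers. NZO, which was high for the other proteases, had 1.87 ± 0.731 CPM of Tpsab1 and did not pass the test. WSB, low for those proteases, had 2.15 ± 1.81 CPM (0.575 to 6.15, median 2) and was also not called, at 0.58 ± 0.28 (edgeR adjusted p = 0.0755). It was called without the 6 libraries rich in Crisp1 (0.72, edgeR adjusted p = 0.0276) and without any of AJ replicate 1 or WSB replicates 1, 3 and 4 in turn (0.63 to 0.72).

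The strain 129 was called higher for Tpsab1 by 1.01 ± 0.28 (2.8 ± 1.75 CPM; edgeR adjusted p = 0.00708). Its values were 5.68, 3.75 and 4.19 CPM in replicates 6, 7 and 9, the libraries with high Crisp1, and 1.22 to 2.11 CPM in the other 4. Those 3 libraries, which are also the 129 libraries with low Xist, did not overlap the other 4. Without the 6 Crisp1-rich libraries of all strains the difference was 0.12 (edgeR adjusted p = 0.886). Without 129 replicate 6 alone it was 0.74 (edgeR adjusted p = 0.091). In the Crisp1-rich B6 and NOD libraries Tpsab1 was 0.442 to 1.01 CPM. The part of duct tissue in the 129 value was not tested.

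**Figure D3:**
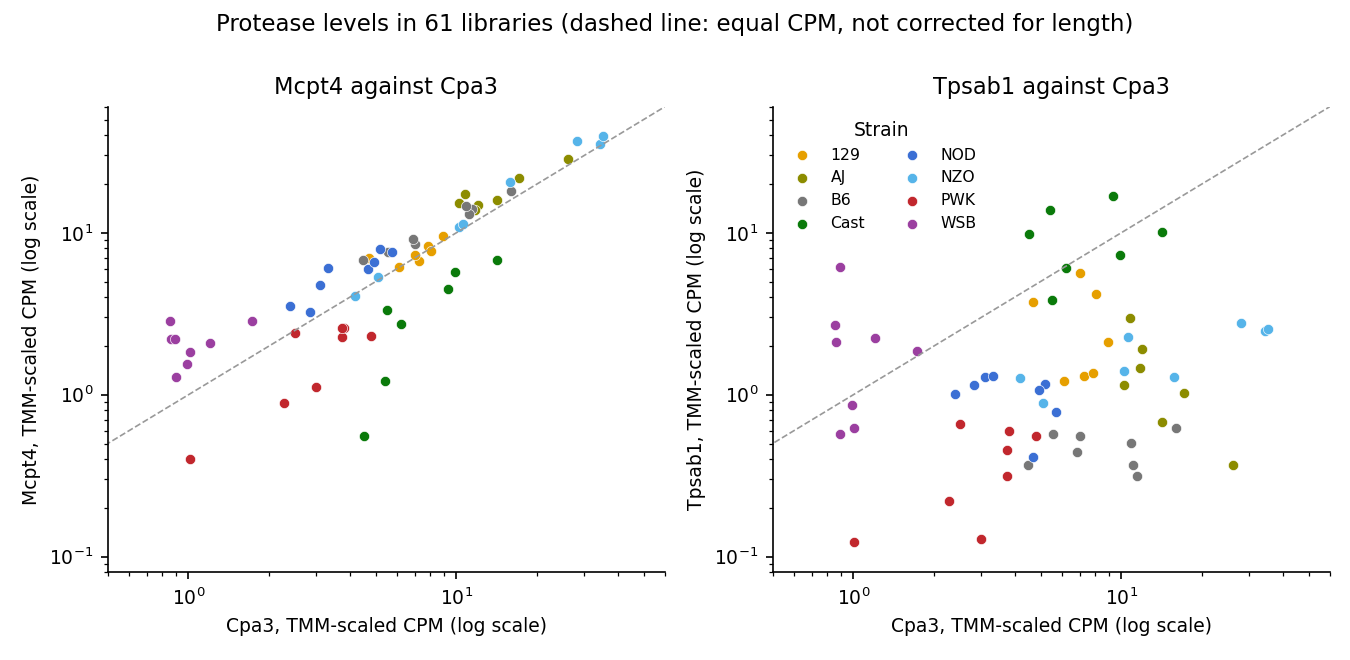
Mcpt4 (left) and Tpsab1 (right) against Cpa3 in 61 libraries, CPM on log axes, colours by strain; the dashed line marks equal CPM, which is not corrected for transcript length. Mcpt4 follows Cpa3 with Cast and PWK below the other strains, while Tpsab1 splits by strain, with B6 at 0.313 to 0.627 CPM and Cast at 3.82 to 16.8 CPM.

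Kit (ENSMUSG00000005672, chr5:75574916-75656722, plus strand) varied less than the proteases. AJ libraries ran from 28.3 to 37.6 CPM (median 32), B6 from 19.6 to 42.8 (median 29.9), NZO from 27.1 to 30.2 (median 29.8) and Cast from 6.99 to 15.6 (median 12.1). The Cast libraries lay below every AJ, NZO and B6 library. AJ was higher by 0.71 ± 0.14 (33.1 ± 3.27 CPM; edgeR adjusted p = 0.000147), B6 by 0.56 ± 0.14 (30.3 ± 7.83; edgeR adjusted p = 0.00149) and NZO by 0.49 ± 0.14 (29.1 ± 1.26; edgeR adjusted p = 0.00227). Cast was lower by -0.95 ± 0.17 (12.1 ± 3.34 CPM; edgeR adjusted p = 2.68e-06).

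The low end of the Kit order differed from that of the proteases. WSB, with the lowest Cpa3, had 21.5 ± 10.7 CPM of Kit (9.8 to 43.3, median 19.6) and a log2 difference of -0.01 ± 0.15. PWK was called lower by -0.37 ± 0.15 (17.3 ± 5.39 CPM; edgeR adjusted p = 0.0411), and the call was lost without any of PWK replicates 3, 4, 5, 6 and 9 in turn (edgeR adjusted p = 0.0531 to 0.129) and without the 6 Crisp1-rich libraries. Neither 129 nor NOD, at 19.4 and 18.5 CPM, was called. Neighbours in the order differed between NZO and WSB (0.44, edgeR adjusted p = 0.0443) and between PWK and Cast (0.51, edgeR adjusted p = 0.0312). Kit is also made by other cells, among them melanocytes and interstitial cells of Cajal. The melanocyte markers, of which 5 of 7 were analysed here without Tyr and Oca2, summed to 0.975 to 5.91 CPM over all libraries. The 3 markers of interstitial cells of Cajal summed to 24.5 to 107 CPM. The part of these cells in the Kit levels was not tested.

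The IgE receptor chains had few reads. Fcer1a (ENSMUSG00000005339, chr1:173221284-173227214, minus strand) encodes the chain that binds IgE. It ran from 0.194 to 2 CPM in NZO (median 0.725), from 0.421 to 1.15 in AJ (median 0.839) and from 0 to 0.347 in WSB (median 0.0574). WSB held 25 reads in all, with 3 libraries at 0, and lay under every AJ library. NZO was higher by 1.49 ± 0.35 (0.836 ± 0.639 CPM; edgeR adjusted p = 0.000288) and AJ by 1.47 ± 0.37 (0.829 ± 0.281; edgeR adjusted p = 0.00198). WSB was lower by -2.01 ± 0.5 (0.103 ± 0.126; edgeR adjusted p = 0.000663), and -2.62 without replicate 1. The other strains had means of 0.223 to 0.555 CPM and were not called.

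Ms4a2 (ENSMUSG00000024680, chr19:11615523-11623719, minus strand) encodes the chain that amplifies the receptor's signal. NZO libraries ran from 0.332 to 1.88 CPM (median 0.757), AJ from 0.438 to 1.17 (median 0.99), PWK from 0.0614 to 0.409 (median 0.189) and WSB from 0.0446 to 0.341 (median 0.199). AJ lay above every PWK and WSB library, while the lowest NZO libraries overlapped both. NZO was higher by 1.22 ± 0.26 (0.896 ± 0.57 CPM; edgeR adjusted p = 9.84e-05) and AJ by 1.12 ± 0.28 (0.842 ± 0.312; edgeR adjusted p = 0.00207). PWK, with 60 reads in all, was lower by -1.3 ± 0.33 (edgeR adjusted p = 0.00113), and WSB, with 50, by -1.33 ± 0.34 (edgeR adjusted p = 0.000884). Neighbours in the order of strains did not pass the test for either chain.

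Hdc (ENSMUSG00000027360, chr2:126593667-126619299, minus strand) makes histamine from histidine and is also expressed by basophils and immature myeloid cells. Its NZO libraries ran from 3.61 to 49 CPM with a median of 6.59. The value of 49 CPM came from replicate 8, and the other 7 NZO libraries reached at most 8.43. In that library genes of immature neutrophils, chosen after their values were seen, were also high, with 560 CPM of Ngp and 229 CPM of Mpo against at most 2.48 and 1.56 CPM in the other NZO libraries. NZO was higher for Hdc by 1.54 ± 0.23 (11.3 ± 15.3 CPM; edgeR adjusted p = 1.71e-07), and by 0.61 ± 0.2 without replicate 8 (edgeR adjusted p = 0.0078). The part of neutrophil precursors in the larger value was not tested.

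PWK was lower for Hdc by -0.91 ± 0.29 (1.23 to 3.56 CPM, median 2.65; edgeR adjusted p = 0.00829) and WSB by -0.95 ± 0.29 (1.67 to 4.98 CPM, median 2.25; edgeR adjusted p = 0.00544). Cast, at 4.29 to 9.95 CPM (median 6.77), differed by 0.58 ± 0.27 without passing the test (edgeR adjusted p = 0.0594), though all 7 of its libraries lay above the median of the others. It passed without NZO replicate 8 (0.71, edgeR adjusted p = 0.00158). The remaining strains had means of 3.45 to 5.27 CPM. Neighbours in the order differed only between NZO and Cast (0.84, edgeR adjusted p = 0.044), with NZO replicate 8 included. Without that library the order turned, with NZO 0.61 and Cast 0.71 above the other strains.

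**Figure D4:**
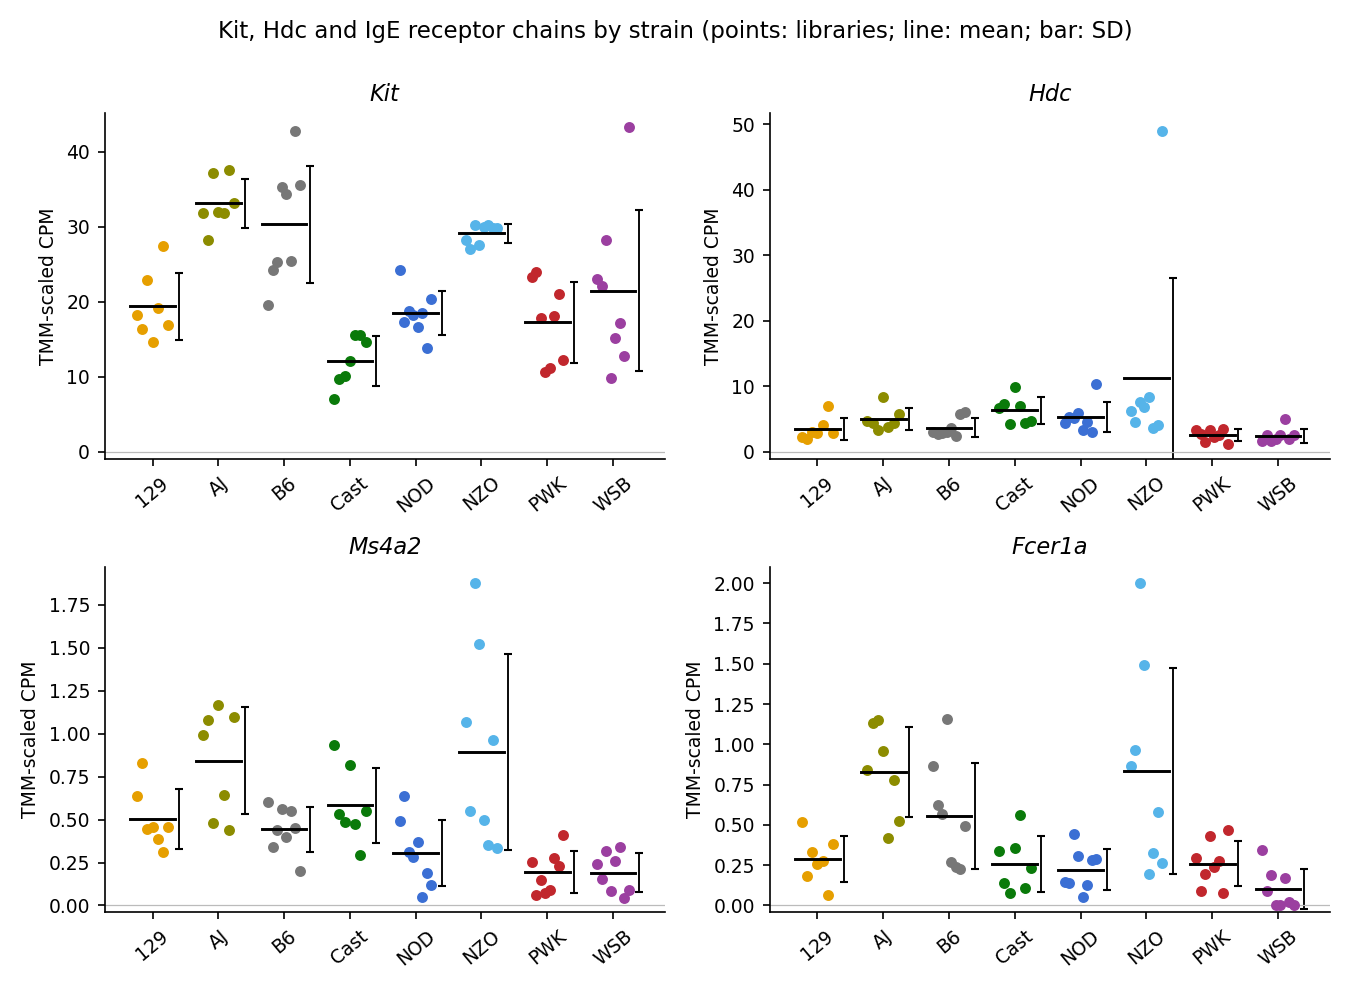
CPM of Kit, Hdc, Ms4a2 and Fcer1a (vertical axes) in each of the 61 libraries (points) by strain (horizontal axis), with strain mean (line) and SD (bar). Kit is highest in AJ, B6 and NZO and lowest in Cast, 1 NZO library stands at 49 CPM of Hdc (the lower end of that bar lies below the axis), and the receptor chains stay at or under 2 CPM.

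Cpa3, which encodes a granule protease of mast cells, was taken as a reference. Each other member was expressed as a ratio to Cpa3 in the same library, which compares strains per unit of that transcript. Exact permutation tests of the log2 ratio were run for 28 strain pairs and 8 members, 224 in all. After Benjamini-Hochberg adjustment 104 passed. They comprised 21 of 28 for Mcpt4, 21 for Tpsab1, 15 for Cma1, 13 for Kit, 12 each for Tpsb2 and Hdc, 7 for Ms4a2 and 3 for Fcer1a. Ratios of other genes to Cpa3 were not tested, so no share over all genes can be set beside these counts. The ratios are of CPM and are not corrected for length, so only differences between strains are read.

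Per unit of Cpa3, Mcpt4 was lowest in Cast and PWK, with geometric mean ratios of 0.38 and 0.554. In 129, NZO, AJ, B6 and NOD it was 1.07 to 1.41, and in WSB 1.94. Cast and PWK each passed as lower than 6 of 7 strains, WSB passed as higher than all 7, and Cast and PWK did not pass against each other (-0.55, adjusted exact permutation p = 0.207). WSB had little Mcpt4 in all but more of it per Cpa3 than any other strain, with its own low Cpa3 as the divisor. Cma1 per Cpa3 was lowest in Cast at 0.521, called below 6 of 7 strains, and Tpsb2 per Cpa3 was highest in NOD at 1.25, called above 6 of 7.

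Tpsab1 per Cpa3 spanned the widest range. The ratio was 0.0597 in B6, 0.086 in AJ, 0.13 in NZO and in PWK, 0.263 in NOD, 0.343 in 129, 1.2 in Cast and 1.56 in WSB. Cast and WSB each passed as higher than 6 of 7 strains and did not pass against each other (-0.38, adjusted exact permutation p = 0.577). PWK, which did not differ from B6 in Tpsab1 beyond the spread, had a higher ratio than B6 (B6 minus PWK -1.13 on the log2 scale, adjusted exact permutation p = 0.0156).

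Kit per Cpa3 was 18.1 in WSB and 1.6 to 5.69 in the other strains, and WSB passed as higher than all 7. In WSB the same held for Ms4a2, at 0.2 against 0.0558 to 0.0819, and for Hdc, at 2.22 against 0.347 to 1.28. Each WSB ratio, those of Mcpt4 and Tpsab1 included, has the low Cpa3 of WSB, 291 reads over its 8 libraries, as its divisor. WSB also had the highest ratios for Cma1 (1.07, called above 4 of 7 strains) and Fcer1a (0.105, called above none). For Tpsb2 its ratio was 1.17, against 1.25 in NOD. With Ms4a2 in place of Cpa3 as the reference, 51 of 224 tests passed.

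**Figure D5:**
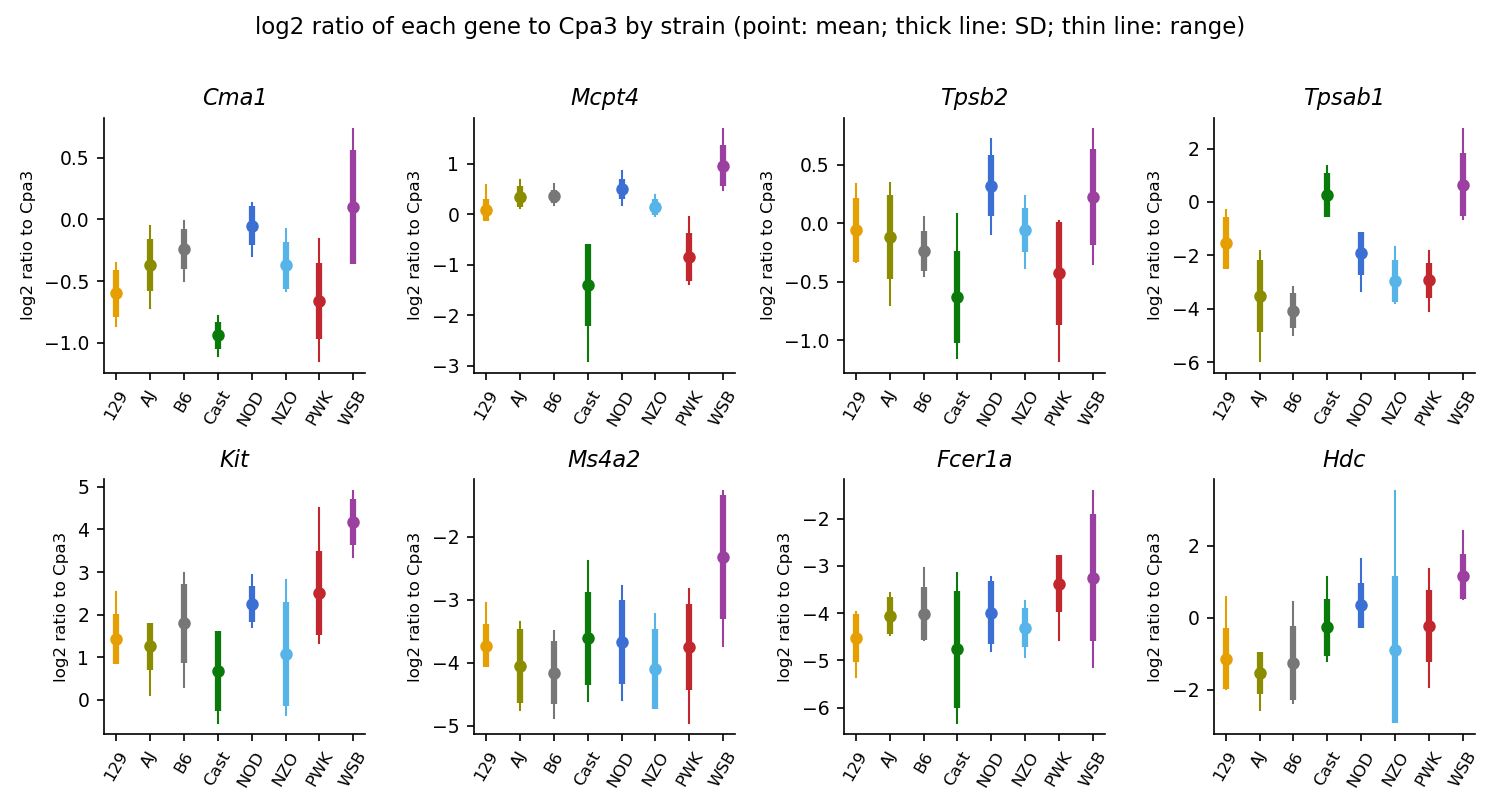
Log2 ratio of each of the 8 other members to Cpa3 by strain (point, mean; thick bar, SD; thin bar, range over libraries). Cast and PWK are low for Mcpt4, Cast and WSB are high for Tpsab1, and WSB is high for Kit, Ms4a2 and Hdc.

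Libraries of one strain also differed in mast cell transcripts, and the proteases did so together. With strain means removed, log2 CPM of Cma1 correlated with Cpa3 at r = 0.944 (rho = 0.918) over 61 libraries, Mcpt4 at r = 0.902 (rho = 0.875) and Tpsb2 at r = 0.882 (rho = 0.831). Permutation within strains gave p = 1e-05 for each, the smallest that 100000 draws can give, and an adjusted p of 2.67e-05 over the 8 members. Within single strains r was positive in all 8 for these members, from 0.459 to 0.993 for Cma1, 0.378 to 0.994 for Mcpt4 and 0.188 to 0.995 for Tpsb2. Without the 2 libraries farthest from the median of Cpa3 the values were 0.932, 0.876 and 0.847.

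The receptor chains followed more loosely. Fcer1a correlated with Cpa3 at r = 0.631 (rho = 0.542, adjusted permutation p = 8e-05) and Ms4a2 at r = 0.575 (rho = 0.47, adjusted permutation p = 0.000448). Without the 2 farthest libraries these were 0.564 and 0.487, and in strains other than NZO 0.396 and 0.363. Tpsab1 did not pass (r = 0.135, rho = 0.0986, adjusted permutation p = 0.251), with r from -0.776 to 0.823 in single strains. Kit ran weakly against Cpa3 (r = -0.235, rho = -0.337, adjusted permutation p = 0.0231; -0.253 without the 2 farthest) and was positive in 2 of 8 strains. For Hdc r was -0.35 (rho = -0.186, adjusted permutation p = 0.0612), and -0.166 without the 2 farthest libraries.

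Xist levels moved with these differences. In a fit with strain and log2 Xist, 5 of 9 members were called higher with Xist, namely Cpa3, Cma1, Mcpt4, Tpsb2 and Ms4a2, and Tpsab1 was called lower, where 18.1% of all tested genes were called higher and 19.7% lower. The change per log2 unit of Xist was 0.091 ± 0.016 for Cpa3 (edgeR adjusted p = 7.31e-06), 0.0779 ± 0.017 for Cma1 (edgeR adjusted p = 0.000207) and -0.069 ± 0.023 for Tpsab1 (edgeR adjusted p = 0.016). Kit (edgeR adjusted p = 0.446), Hdc (0.0783) and Fcer1a (0.0535) did not pass.

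In NZO the 4 libraries with Xist over 300 CPM had 15.8 to 35.3 CPM of Cpa3 and the 4 at or under it 4.2 to 10.6. In B6 the ranges were 10.9 to 16 and 4.47 to 7.02, in AJ 14.2 to 26.1 and 10.2 to 12, in Cast 9.31 to 14.2 and 4.51 to 6.2, and in NOD 4.68 to 5.73 and 2.4 to 3.31. The ranges did not overlap in these 5 strains and overlapped in 129, PWK and WSB. Mesothelial markers split the same NZO libraries, at 29.5 to 42.4 CPM in replicates 1 to 4, which had Xist over 300 CPM, and 96.6 to 208 CPM in replicates 5 to 8. Over all 61 libraries, with strain means removed, their sum did not pass against Cpa3 (r = 0.0616, rho = 0.196, adjusted permutation p = 0.778). Within single strains r was positive in 6 of 8. Kit in NZO lay within 27.1 to 30.2 CPM on both sides of the Xist split. For Tpsab1 the strains were split. Its median was lower in the libraries with Xist over 300 CPM in 6 of 8 strains, with ranges that did not overlap in AJ (0.367 to 1.02 and 1.15 to 2.99 CPM), WSB (0.575 to 1.87 and 2.13 to 6.15) and 129. It was higher there in NZO (median 2.51 against 1.34 CPM) and Cast (10.1 against 7.97), with ranges that overlapped. With log2 Xist as a covariate none of the 72 calls changed, and with its slope within strains removed Cma1, Mcpt4 and Tpsb2 kept r of 0.881, 0.81 and 0.765 with Cpa3, Tpsab1 reached 0.34 (adjusted permutation p = 0.0115) and Kit no longer passed (-0.17, adjusted permutation p = 0.125).

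Of 12 marker sums of other cells tested against Cpa3 in the same way, 3 passed. Fibroblast and progenitor markers had r = 0.55 (rho = 0.515, adjusted permutation p = 0.00048; 0.558 without the 2 farthest), markers of interstitial cells of Cajal r = 0.335 (rho = 0.359, 0.015; 0.368) and endothelial markers r = -0.571 (rho = -0.515, 0.00066; -0.467). Macrophage markers (r = 0.128, rho = 0.0188, adjusted permutation p = 0.592) and basophil markers (r = 0.0812, rho = 0.137, adjusted permutation p = 0.685) did not. The slope on log2 Xist, with which Cpa3 moved, was not removed for these sums. The largest genes of the fibroblast and progenitor sum were Col3a1, Dcn and Col1a1, at means of 2130, 997 and 741 CPM. Dpp4 and Pi16 had 39.4 and 66.8 CPM. The part of the cells behind these sums in the members' levels was not tested.

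The genes outside the 9 whose deviations from strain means were most like the members', by the median r over the 9 members across 61 libraries, were led by Mrgprb1 (0.653) and Mrgprb2 (0.613). Mrgprb2 encodes a mast cell receptor for basic peptides and drugs. Shc2 (0.601), Loxl3 (0.551), Hoxc11 (0.541), Nfya (0.54), Kif3c (0.535), Plxdc2 (0.529), Eno2 (0.529) and Mrgprx2 (0.528) followed. For comparison, the members' own median r with the other members was 0.603 for Cpa3 and 0.597 for Tpsb2, and -0.244 for Kit. These correlations share libraries, depth and the Xist split, and are given as a description.

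Of 24 other mast cell genes listed, 18 were tested and all 18 passed the F-test among strains, as 89.9% of all genes did. In NZO 15 were higher and none lower (median 0.95), where 27.2% of all genes were higher, and in WSB 1 was higher and 10 lower (median -0.73), where 23.7% of all genes were lower. Hpgds, the synthase of prostaglandin D, was higher in NZO by 3 ± 0.2 (62.7 ± 39 CPM; edgeR adjusted p = 3.92e-19) and lower in WSB by -1.72 ± 0.29 (3.6 ± 1.08 CPM; edgeR adjusted p = 1.68e-06). Mrgprb1 followed the proteases in NZO (2.09 ± 0.24, 4.59 ± 3.38 CPM; edgeR adjusted p = 1.36e-10) and WSB (-2.71 ± 0.37, 0.239 ± 0.2 CPM; edgeR adjusted p = 1.93e-08). It was also higher in Cast by 1.22 ± 0.27 and lower in NOD by -2.25 ± 0.35 (0.327 ± 0.156 CPM; edgeR adjusted p = 1.3e-06). Mrgprb2 was higher in NZO by 2.38 ± 0.26 and lower in WSB by -2.89 ± 0.42. Ltc4s, which makes leukotriene C, was highest in NOD at 68 ± 11.6 CPM and lowest in Cast at 19.3 ± 8.2 (-1.32 ± 0.17, edgeR adjusted p = 3.6e-09). Some of these genes, Hpgds and Ltc4s among them, are also expressed by macrophages.

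Of 16 genes of IgE receptor signalling, Fcer1g among them, 14 were higher and 1 lower in NZO (median 1.33, with 27.2% of all genes higher). In WSB 1 was higher and 12 were lower (median -0.69, with 23.7% of all genes lower). In Cast 2 were higher and 10 lower (median -0.41, with 26.6% of all genes lower). In AJ, where 7 of the 9 members were higher, 1 of these genes was higher and 2 were lower (median 0.01; 13.4% and 9.59% of all genes). Fcer1g, the receptor's gamma chain, was higher in NZO by 2.28 ± 0.16 (62.4 ± 25.1 CPM; edgeR adjusted p = 4.12e-18) and lower in WSB by -1.14 ± 0.21 (7.82 ± 1.52 CPM; edgeR adjusted p = 1.08e-05). The exchange factor Vav1 (2.42 ± 0.15), the adaptor Lat2 (3.25 ± 0.27) and the kinase Btk (1.95 ± 0.15) were also higher in NZO. These genes are shared with macrophages, whose marker sum was 2360 to 6810 CPM in NZO and 474 to 873 CPM in WSB, and the part of macrophages was not tested.

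Among 12 tested genes of the Kit ligand and mast cell growth, 8 were higher and 1 lower in NZO (median 0.44), where 27.2% of all genes were higher and 26.6% lower. In PWK 1 was higher and 6 lower (median -0.22), where 24.6% of all genes were higher and 19% lower. Kitl, the ligand itself, chosen after its values were seen, was higher in Cast by 0.31 ± 0.095 (94.2 ± 24.2 CPM; edgeR adjusted p = 0.00447), where Kit was lowest, and in NZO by 0.26 ± 0.091 (91.5 ± 16.3 CPM; edgeR adjusted p = 0.0119). Csf2rb2, a subunit of the interleukin receptor family that supports mast cell growth, was higher in NZO by 2.16 ± 0.2 and lower in PWK by -1.64 ± 0.27 and in WSB by -1.75 ± 0.27. Cbl, which marks activated Kit for degradation, was higher in NZO by 0.8 ± 0.079 (133 ± 29.4 CPM; edgeR adjusted p = 8.01e-13).

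Of 6 genes of histamine handling and its receptors 4 were tested, and 3 were higher in PWK, where Hdc was lower and 24.6% of all genes were higher. For Aoc1, which oxidises histamine, PWK replicate 6 had 60 CPM and the other PWK libraries at most 4.66. Hrh2, a histamine receptor, was higher in PWK by 0.9 ± 0.2 (2.14 ± 1.13 CPM; edgeR adjusted p = 0.000147) and lower in Cast by -1.99 ± 0.27 (0.363 ± 0.238 CPM; edgeR adjusted p = 9.26e-09). Hnmt, which methylates histamine and so inactivates it, was higher in WSB by 0.58 ± 0.15 and in PWK by 0.45 ± 0.16, and lower in Cast by -1.08 ± 0.19.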

How the data were processed

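RNA of adipose tissue was selected for poly(A) tails, given ERCC spike-in transcripts and made into 61 sequencing libraries, per the labels' protocols. The authors deposited expected counts per gene, of which 21.1% were not whole within 1e-06, and log2 values from a variance-stabilising transformation, as the name of that table gives it; DESeq2 and build GRCm38 are named in the submitters' processing notes. The aligner and the counter are not given in the sources used here, nor is the strandedness of counting or whether reads of each strain were aligned to its own genome, which could lower values where a strain differs from the reference. Gene positions are those of the deposited annotation.

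The estimates were rounded to whole counts. filterByExpr by strain set 2566 genes aside, and 18603 genes were fitted in edgeR 4.0.16 (R 4.3.3) with TMM scaling, 1 mean per strain and the robust quasi-likelihood test. Contrasts were an F-test over strains, a strain against its 7 fellows weighted alike, and 28 pairs, with Benjamini-Hochberg adjustment over all tested genes at 0.05. All tests were 2-sided. The fit was tested on simulated counts. Ratios to Cpa3 used log2 CPM with 0.05 CPM added and exact permutation tests; correlations used 0.5 CPM added and 100000 permutations within strains (Python 3.11.15, numpy 2.4.6, scipy 1.17.1, pandas 2.3.3). Marker sums are CPM without TMM scaling. Alternatives were DESeq2 1.42.0, limma 3.58.1 on the deposited log2 values, size factors by relative log expression (RLE), other filters, log2 Xist as a covariate, the replicate number as a block, leaving out each library, and, chosen after seeing the data, leaving out the 6 libraries over 250 CPM of genital duct markers (nearly all Crisp1) or Cast replicates 5 and 6.

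Shared transcript sequence was measured as 31-base stretches against the GENCODE M21 transcripts. The members and the gene lists were chosen with earlier results of these data known. Beside the members the text names, per list, at most the 4 called genes whose variance lay most between strains, and the 10 genes most like the members, predicted genes and clone names passed over; Kitl, Ngp, Mpo, Elane, Prtn3 and Camp were added after their values were seen. No label says that libraries of a strain are independent samples beyond their replicate numbers, so p-values measure the spread between these libraries, which may be partly technical.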

Additional observations from a re-analysis of the deposited data

Results flagged for a closer look

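Each strain's values of each member were examined for a single library standing apart from the others, by the gap to its nearest neighbour as a share of the strain's range (Dixon's test at the 95% level). Of 72 groups 6 held such a library, where about 5% are flagged by chance if values are normally distributed. CPM were tested without a log transformation, so that share may not hold here. In WSB replicate 9 the level of Cpa3 was 1.73 CPM, while the other WSB libraries had 0.854 to 1.2. In WSB replicate 7 that of Tpsab1 was 6.15 CPM, while the others had 0.575 to 2.7. The other 4 were values of Hdc. NZO replicate 8 had 49 CPM and the other NZO libraries 3.61 to 8.43. NOD replicate 8 had 10.4 CPM and the others of its strain 3.06 to 5.9. In 129 replicate 7 it was 7 CPM beside 2.03 to 4.11, and in WSB replicate 7 it was 4.98 CPM beside 1.67 to 2.56. All 6 were high values. NZO replicate 8 also held 198 CPM of B cell markers, the highest sum of the 61 libraries, and 47.7 CPM of Elane, 50.4 of Prtn3 and 78.7 of Camp, genes of neutrophil granules chosen after their values were seen, against at most 0.644, 1.86 and 0.598 CPM in the other NZO libraries.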

How the results depend on the processing

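Over the 61 fits that left out 1 library each, 20 to 23 of the strain contrasts were called higher, 18 to 19 lower, 153 to 161 pair tests were called and the F-test called 9. Of 41 called contrasts 5 lost the call in at least 1 such fit (129 for Tpsab1, B6 for Cpa3 and Tpsb2, NOD for Cpa3, PWK for Kit), 2 others gained one (Cast for Hdc, WSB for Tpsab1), and none reversed. RLE factors, no filter and DESeq2 kept every one of the 72 contrasts on its side of the threshold. limma on the deposited log2 values lost 129 for Tpsab1 (0.33, limma adjusted p = 0.109), B6 for Cpa3 (0.4, 0.0929) and B6 for Tpsb2 (0.3, 0.147) and gained Cast for Hdc (0.41, 0.0472). It moved the linear fold change of 21 called contrasts by over 1.5 times. All 21 moved toward 0, with log2 differences at 0.22 to 0.63 of the edgeR value. Among these log2 differences were NZO for Cpa3 from 1.8 to 1.07, WSB for Cpa3 from -2.87 to -1.57 and NZO for Ms4a2 from 1.22 to 0.3. Requiring a mean of 5 CPM left 6 members tested, with 16 higher and 14 lower. Requiring at least a doubling or halving left 15 and 13.

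Libraries of different strains with the same replicate number correlated at a median r of 0.112, with 99 of 186 pairs over 0.1, and those with different numbers at -0.0196, with 438 of 1441 over 0.1. Same-numbered libraries were thus more alike on the whole, but no label says what a number stands for and not every pair was over 0.1, so the numbers were not taken to pair libraries. The numbers partly followed the Xist split. In B6, NOD and NZO replicates 1 to 4 had Xist over 300 CPM and replicates 5 to 8 did not. AJ replicate 1 and WSB replicate 9 went the other way. The part of the Xist split in this likeness was not tested. With that number as a block 24 contrasts were higher, 19 lower and 165 pairs called, F-test 9, and Cast gained Cpa3 (0.53, edgeR adjusted p = 0.0142) and Hdc (0.69, 0.0138). Without Cast replicates 5 and 6 Cast was also called for Cpa3 (0.63, edgeR adjusted p = 0.0476). Ratio tests passed 51 of 224 with Ms4a2, which has few reads, as the reference, against 104 with Cpa3, and 107 to 126 in the other settings. With strain means kept, the correlation with Cpa3 reversed for Kit (0.284, adjusted permutation p = 0.0309) and Hdc (0.32, 0.0156), a setting in which differences between strains count too. Without NZO replicate 8, 15 of 18 other mast cell genes and 14 of 16 signalling genes were called higher in NZO. Fcer1a and Ms4a2, at 25 and 50 reads over 8 WSB libraries, are limited by depth.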

Other observations

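The proteases lie in clusters, and the counts of cluster genes given here include the members in them. On chromosome 14, 4 of 15 listed granule protease genes were analysed, Cma1, Mcpt4, Ctsg and Gzmb, and all 4 were called higher in NZO (27.2% of all genes) and 3 lower in WSB (23.7% of all genes). Apart from the members Cma1 and Mcpt4, only Ctsg was lower in WSB, at a mean of 0.00434 CPM. Gzmb, a granule protease of cytotoxic lymphocytes, was higher in NZO by 2.93 ± 0.26 (1.51 ± 0.662 CPM; edgeR adjusted p = 1.41e-14). Ctsg, cathepsin G of neutrophils and mast cells, had 41.2 CPM in NZO replicate 8, the library with high neutrophil granule genes, and at most 0.409 CPM in the other NZO libraries. On chromosome 17, 10 of 15 listed genes were tested, with 5 higher and none lower in Cast, where 29.6% of all genes were higher and 26.6% lower, and none higher and 6 lower in PWK, where 24.6% were higher and 19% lower. The member Tpsab1 is among the 5, and the members Tpsab1 and Tpsb2 are among the 6. Prss34, a mast cell and basophil protease, was higher in Cast by 5.12 ± 0.4 (1.91 ± 1.16 CPM; edgeR adjusted p = 1.95e-15), as was Tpsab1. In other strains the calls of the 2 genes parted. Prss34 was called higher in B6 by 2.37 ± 0.44 (0.357 CPM against 0.351 over the other strains), where Tpsab1 was lower. In NZO it was called higher by 2.1 ± 0.44 (0.301 CPM against 0.359), where Tpsab1 was not called. In 129, at 0 CPM, it was called lower by -5.44, where Tpsab1 was called higher. These log2 differences rest on strains near 0 CPM, WSB at 0.00902 among them, and the arithmetic mean of NZO was below that of the others. Prss41 was higher in WSB by 2.44 ± 0.31 (0.605 ± 0.312 CPM; edgeR adjusted p = 2.93e-09) and lower in B6 by -2.96 ± 0.52 (0.0199 ± 0.0197 CPM; edgeR adjusted p = 1.3e-05) and in PWK by -4 ± 0.58, the strains that were low for Tpsab1. Of 6 basophil markers 4 were tested, and their sums in single libraries ran from 3.61 to 22.6 CPM, Prss34 included. Kit was tested against the 12 marker sums of other cells after the data were seen, and none passed (lowest adjusted permutation p = 0.0902, for basophil markers, r = -0.394, rho = -0.361, -0.342 without the 2 farthest libraries).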
